A study of Mus musculus with 6 samples.

Results

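The genes that encode the proteasome were followed across 6 two-colour microarrays of mouse ventral prostate. Members were all probes that the array design names Psma, Psmb, Psmc, Psmd, Psme, Psmf or Psmg with a number, or that reach such a symbol through their RefSeq accession, without the immunoproteasome genes Psmb8, Psmb9 and Psmb10 and without Psmc3ip. The rule gave 65 probes of 41174, for 42 genes of 30820 gene names. They comprised 15 genes of the 20S core (Psma1 to Psma7, Psmb1 to Psmb7 and Psmb11), 20 of the 19S cap (Psmc1 to Psmc6 and Psmd1 to Psmd14), 3 activators (Psme1, Psme3 and Psme4), the inhibitor Psmf1 and 3 assembly factors (Psmg1 to Psmg3). The cap group follows the gene symbols, so its counts and medians include Psmd5, Psmd9 and Psmd10, chaperones that build its base. No probe was taken in as Psma8, Psme2 or Psmg4. Of the 42 genes, 5 (Psmb11, Psmd6, Psmg1, Psmg2 and Psmg3) were reached only through an accession. The design has 16 genes with several probes and 26 with 1, and each gene is described by its brightest probe.

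The study hybridised each test RNA against RNA of young wild type mice, aged 2.5 months, to ask how a transgene or age alters expression in the ventral prostate. All mice were on the FVB background. The test RNA came from mice of line fl26, transgenic for 15-LOX2 (15-lipoxygenase 2, an enzyme that oxygenates arachidonic acid), from mice of line svb9, transgenic for its splice variant b, both aged 2.5 months, or from wild type mice aged 15 months, here called old. Each group had 2 arrays, described by the submitters as biological replicates. Each transgene was represented by a single line, the promoter that drives it is not given in the sources used here, and transgene expression was not analysed here. The RNA was pooled. The sample labels give ventral prostates of 3 mice per pool and the series design gives prostatic lobes of 6 mice, which was not resolved. Young wild type RNA was green (Cy3) and test RNA red (Cy5) on every array, so dye and group cannot be told apart in any comparison with young wild type. In a comparison between 2 test groups the dye is the same on both sides. In bulk tissue, fewer cells of a type and less RNA per cell cannot be told apart.

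The proteasome is the barrel-shaped protease that degrades proteins marked with ubiquitin. Its 20S core stacks outer rings of alpha subunits (Psma genes) around inner rings of beta subunits (Psmb genes), which hold the catalytic sites. The 19S cap recognises ubiquitin chains, removes them and unfolds the substrate with a ring of ATPases. In many cell types the subunit genes are induced together by the transcription factor NFE2L1 through antioxidant response elements when proteasome activity falls short, and secretory epithelia such as the ventral prostate depend on the proteasome to clear misfolded secretory protein.

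Because that element is a well known shared feature of proteasome promoters, its core, TGACNNNGC, was searched on both strands in the 250 bases upstream of the start in RefSeq promoters (build GRCm38.p6). Promoters were held for 35 of the 42 genes, 37 promoters in all. The core was found in 5 of the 35 genes, namely Psmb5 and Psmb6 of the core and Psmc6, Psmd9 and Psmd12 of the cap. That is 13.5% of the 37 promoters, against 10.2% of all 32851 promoters. The 5 stretches are shown because they hold every match among the members, and because Psmb5 and Psmb6 are catalytic subunits whose arrays are described next. They are written in the direction of transcription, with the match in capitals. The match reads TGACNNNGC in Psmb5, Psmb6 and Psmd9, and its reverse complement in Psmd12 and Psmc6. The Psmb5 stretch is chr14:54617999-54618077 on the minus strand, and its match ends 38 bases before the start. The Psmb6 stretch is chr11:70525313-70525356 on the plus strand, with 0 bases between match and start. The Psmd9 stretch is chr5:123228124-123228189 on the plus strand, with 22 bases between them. In Psmd12, at chr11:107479278-107479324 on the plus strand, the match lies 238 bases before the start. In Psmc6, at chr14:45329574-45329640 on the plus strand, it lies 218 bases before it.
Psmb5: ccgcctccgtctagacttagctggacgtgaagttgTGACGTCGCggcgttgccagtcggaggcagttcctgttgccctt
Psmb6: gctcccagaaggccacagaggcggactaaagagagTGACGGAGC
Psmd9: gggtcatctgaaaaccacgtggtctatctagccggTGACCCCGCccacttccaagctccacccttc
Psmd12: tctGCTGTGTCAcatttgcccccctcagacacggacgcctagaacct
Psmc6: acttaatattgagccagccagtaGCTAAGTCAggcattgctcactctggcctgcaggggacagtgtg
Other common promoter motifs were searched in the same way, with overlaps between motifs allowed. CCAAT, the NF-Y box, was in 35.1% of the member promoters and 33.8% of all. GGCGGG, the Sp1 box, was in 67.6% of the member promoters and 32.5% of all, in 15 of 17 cap genes and 7 of 12 core genes. A match describes letters in a window and is no evidence of binding.

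No proteasome gene passed the test in any comparison in the fit without the replicate number as a term. With that term, 1 gene passed in fl26 (Psma3) and 4 in old mice (Psmb2, Psmb5, Psmb6 and Psme3), when 3.58% and 4.38% of all tested probes did. In limma without it and with Benjamini-Hochberg adjustment over all tested probes, 0 of 42 genes were called in fl26 (0.0503% of 27860 tested probes were called), 0 of 42 in svb9 and 0 of 40 in old mice (0% of tested probes in both). The lowest adjusted p was 0.377 in fl26 (Psmd3), 0.980 in svb9 and 0.228 in old mice (Psme3). At an unadjusted p under 0.05, fl26 had 3 of 42 genes (7.14%, against 10.2% of all tested probes), all of them lower (4.42% of tested probes were lower and 5.75% higher): Psma7, Psmb1 and Psmd3. The svb9 comparison had 5 of 42 (against 4.45% of tested probes), with Psmd5, Psmd8 and Psme3 higher (2.12% of tested probes) and Psmd3 and Psmg3 lower (2.33%). Old mice had 7 of 40 (against 11.4%), with Psmb2, Psme3 and Psmg2 higher (6.85%) and Psmb5, Psmb6, Psmd12 and Psmg1 lower (4.58%). The share of members was thus below the background in fl26, at 11.9% against 4.45% above it in svb9, and at 17.5% against 11.4% above it in old mice, with no gene past the adjusted threshold.

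The precision was enough to bound most genes. The 95% interval lay within 2-fold either way for 42 of 42 genes in fl26, 42 of 42 in svb9 and 39 of 40 in old mice, where Psme3 reached beyond it. Within 1.5-fold lay 31, 35 and 28 genes. These intervals take the loess normalization as given, and they rest on a spread pooled over the 6 arrays and moderated across probes.

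**Figure D1:**
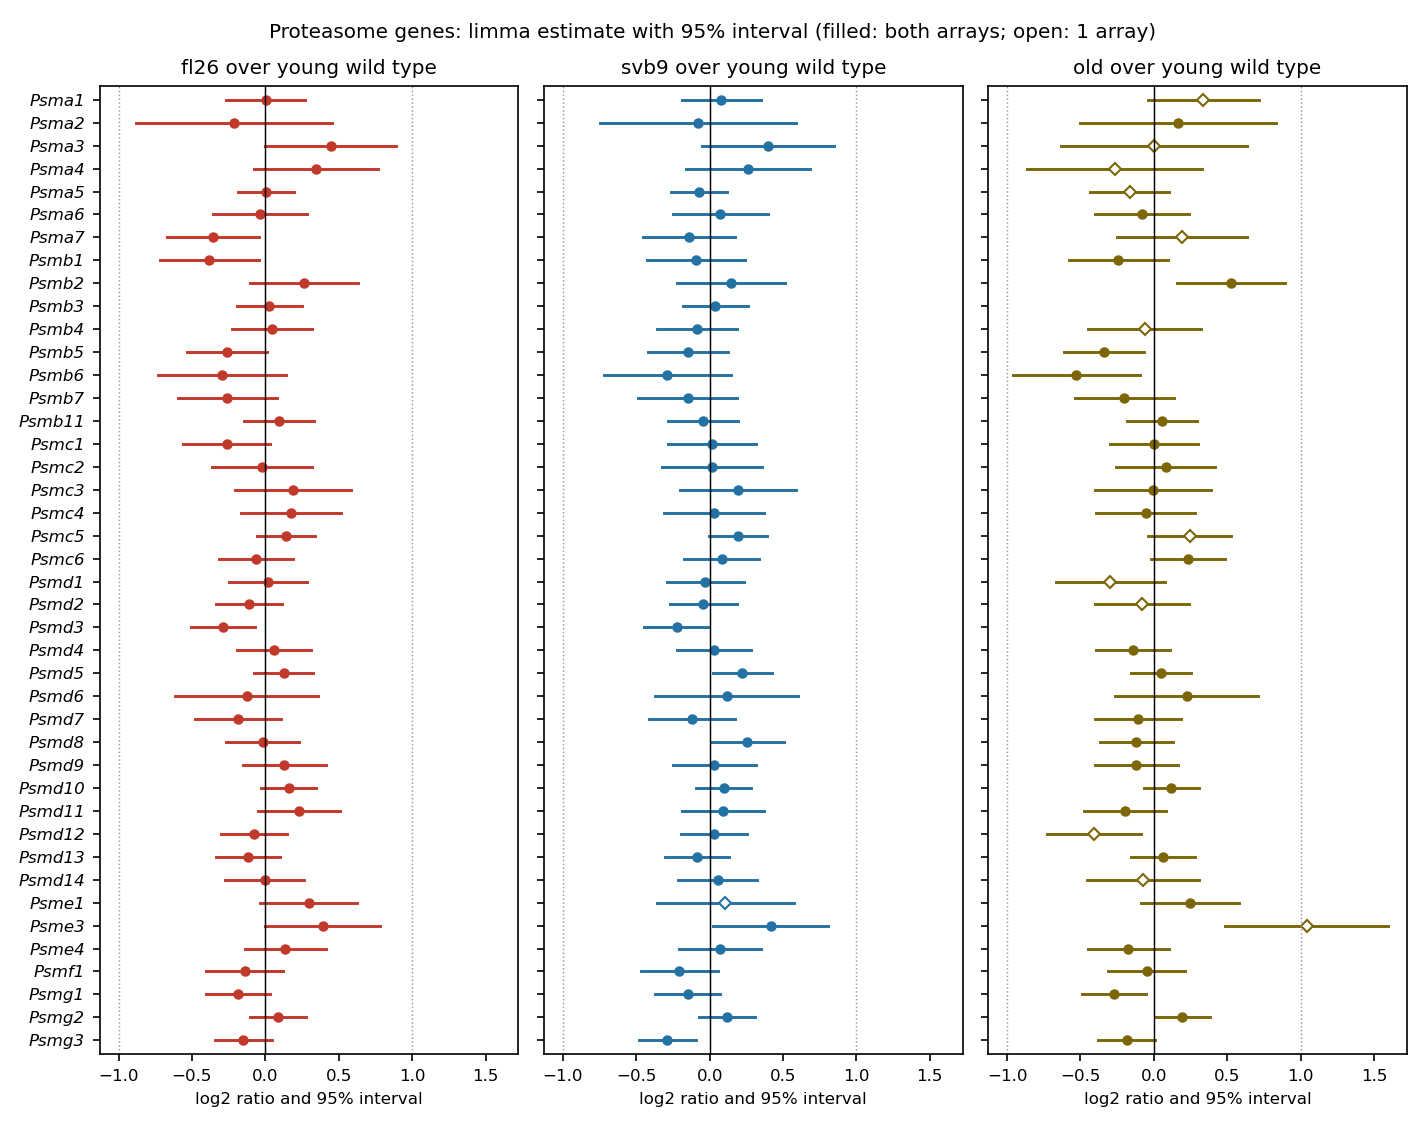
Estimated log2 ratio of each of the 42 genes over young wild type with its 95% interval from limma, for fl26, svb9 and old mice; dotted lines mark 2-fold. Filled circles rest on both arrays and open diamonds on 1, and the Psme3 interval in old mice is the one that reaches past 2-fold.

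With loess normalization the group medians lay near 0. The median log2 ratio over the members was -0.0020 in fl26 (21 of 42 higher), 0.032 in svb9 (25 of 42 higher) and -0.060 in old mice (16 of 40 higher), beside 0.00018, -0.0031 and -0.019 for all tested probes. With each array centred on its median in place of loess, 40 of 42 genes were higher in fl26 (median 0.28, beside 0.10 for all tested probes) and 39 of 40 lower in old mice (median -2.30, beside -0.38), while svb9 kept 25 of 42 higher. The arrays of a group differed in how far the members spread around 0. The median absolute log2 ratio of the members was 0.083 on fl26 array 1 and 0.245 on array 2, beside 0.095 and 0.132 for all tested probes. For the core alone it was 0.101 and 0.378 on the fl26 arrays, 0.051 and 0.153 on the svb9 arrays and 0.169 and 0.485 on the old arrays. All tested probes had 0.071 and 0.109 in svb9 and 0.099 and 0.131 in old mice. The same sign on both arrays was found for 9 higher and 15 lower genes of 42 in fl26 (27.3% and 26.1% of all probes). In svb9 it was 14 higher and 13 lower of 41 (27.5% and 28% of all probes), and in old mice 6 higher and 7 lower of 28 (24% and 33.8%).

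**Figure D2:**
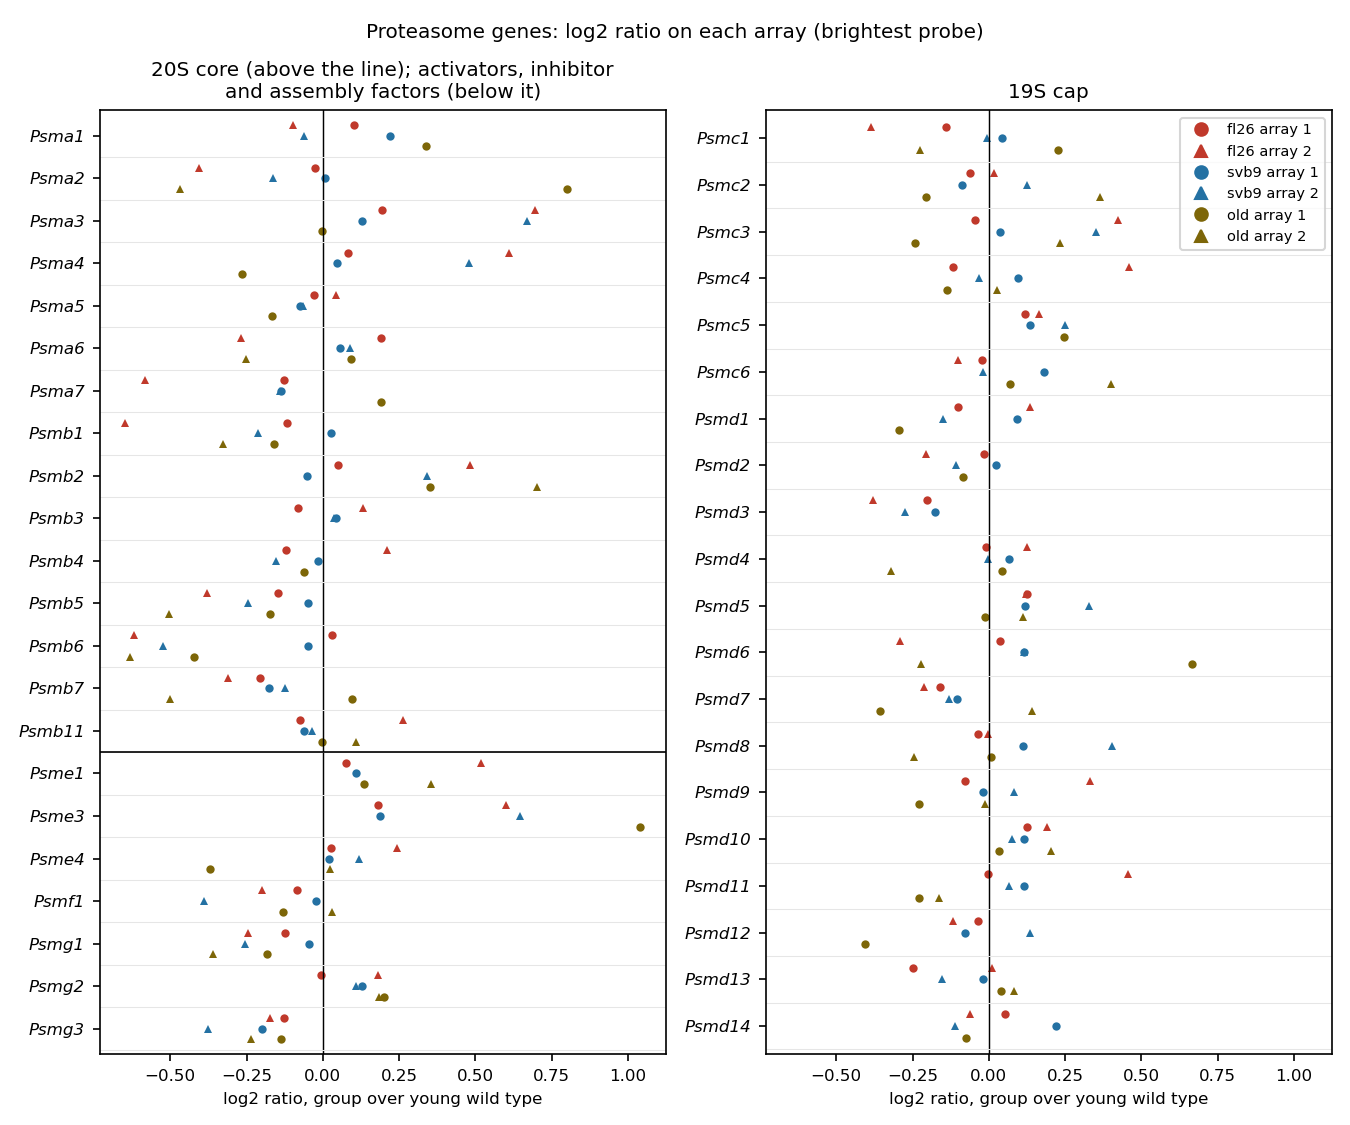
Log2 ratio over young wild type of each proteasome gene on each of the 6 arrays, with the core, activators, inhibitor and assembly factors on the left and the cap on the right; circles are array 1 and triangles array 2 of a group. Psmb5, Psmg1 and Psmg3 lie left of 0 on all 6 arrays and Psmd10 right of 0 on all 6, while most genes lie on both sides.

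The signal of the arrays was uneven. All 42 genes were well above background in green on every array. In red they numbered 42 on both fl26 arrays and svb9 array 1, 40 on svb9 array 2, 28 on old array 1 and 40 on old array 2. Over all probes, red was well above background for 3219 probes on old array 1 and for 13600 to 27833 on the others. The scanner software flagged red spots as uneven for 1 member on svb9 array 2, 2 on old array 1 and 14 on old array 2 (33.3% of members, against 5.14% of tested probes), and these values were left out. As a result 27 genes had values on all 6 arrays, 13 missed 1 and 2 missed both old arrays (Psmb3 and Psmd3). The values left out on old array 2, with flagged spots kept, were 10 higher and 4 lower, from -0.14 to 0.70. All 8 ventral prostate and luminal marker genes (among them Sbp and Pbsn) were above background in green on every array. So were the 3 basal, 5 fibroblast, 4 smooth muscle, 3 endothelial and 6 leukocyte markers, so none of these was at 0 in young wild type. In red each was above background on some array, and the count does not say on which.

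The catalytic subunits of the core had ratios mostly below young wild type, though none passed the test. Psmb5, the chymotrypsin-like subunit, had log2 ratios of -0.15 and -0.38 on the fl26 arrays, -0.05 and -0.25 on the svb9 arrays and -0.17 and -0.50 on the old arrays. It was below young wild type on every array, and the 3 groups overlapped. Psmb6, the caspase-like subunit, had 0.03 and -0.62 in fl26, -0.05 and -0.52 in svb9 and -0.42 and -0.63 in old mice. Both old arrays were low, whereas in fl26 and svb9 only the second array was. Psmb7, the trypsin-like subunit, had -0.21 and -0.31, -0.18 and -0.12, and 0.10 and -0.50. In all, 16 of the 18 values of these 3 genes were below 0. These are 3 probes read on 6 arrays with young wild type green on each, so the 18 values are not independent. Of all probes with a value on 6 arrays, 6.92% were below 0 on every array, as Psmb5 was. In old mice the estimates were -0.34 ± 0.11 (SE) for Psmb5, -0.53 ± 0.18 for Psmb6 and -0.20 ± 0.14 for Psmb7, with limma adjusted p of 0.349, 0.357 and 0.621. When each array was centred on its median in place of loess, the 3 estimates in fl26 changed sign to 0.05, 0.04 and 0.03.

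The other inner-ring subunits had values on both sides of 0. Psmb1, a non-catalytic beta subunit, had -0.12 and -0.65 in fl26, 0.03 and -0.21 in svb9 and -0.16 and -0.33 in old mice, and its fl26 estimate of -0.38 ± 0.14 was the lowest of the 42 genes there (adjusted p = 0.442). Psmb2, another non-catalytic beta subunit, was the core gene with the highest ratio in old mice. Its values were 0.05 and 0.48 in fl26, -0.05 and 0.34 in svb9 and 0.35 and 0.70 in old mice, the last a fold of 1.44 with a 95% interval of 0.16 to 0.90 on the log2 scale (adjusted p = 0.287). With median centring the estimate for Psmb2 in old mice turned to -1.16. Psmb3 and Psmb4 stayed between -0.15 and 0.21 wherever they had a value, but Psmb3 had none in old mice. With flagged spots kept, the old arrays read 0.46 and 0.45 for Psmb3 and -0.33 and -0.14 for Psmb4. Psmb11, the beta subunit of the thymus form of the proteasome, was dim, with red not well above background on either old array, and its ratios ran from -0.07 to 0.26.

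Among the alpha subunits, which form the gated outer rings, Psma3 and Psma4 stood highest in fl26. Psma3 had 0.19 and 0.69 in fl26, 0.13 and 0.67 in svb9 and -0.00 on old array 1, the only old array with a value. The spot on old array 2 was flagged as uneven, and read 0.66 with flagged spots kept. The second array of both transgenic groups was high and the first was not, so the groups overlapped. Its fl26 estimate of 0.44 ± 0.18 was the highest of the 42 genes (adjusted p = 0.493). Psma4 had 0.08 and 0.61 in fl26, 0.05 and 0.48 in svb9 and -0.27 on old array 1, with no value on the other. The flagged spot there read 0.02 when kept. The other tested probe of Psma4 gave estimates of -0.02 in fl26, -0.01 in svb9 and -0.13 in old mice. Psma7 was low on fl26 array 2 alone, with -0.13 and -0.58 in fl26, -0.14 and -0.14 in svb9 and 0.19 on old array 1. With flagged spots kept, the old values of Psma7 were -0.17 and -0.09. Psma2 showed the widest spread within a group, with 0.80 on old array 1 and -0.47 on old array 2. Psma1, Psma5 and Psma6 lay between -0.27 and 0.34 wherever they had a value.

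**Figure D3:**
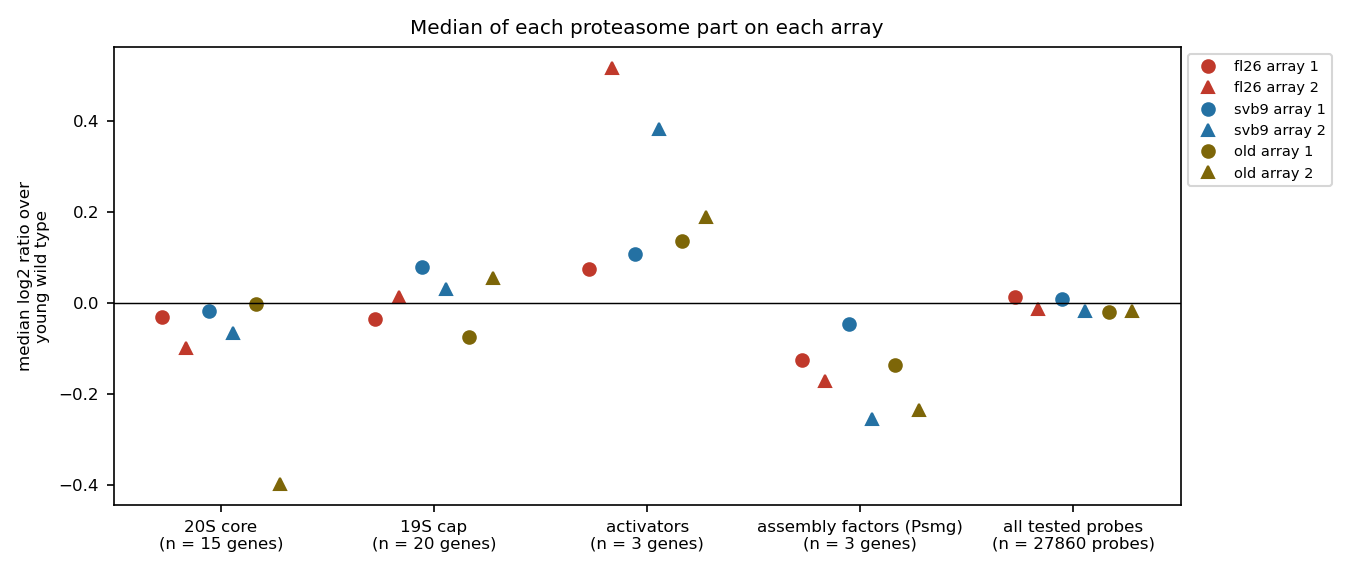
Median log2 ratio of the core, the cap, the activators and the assembly factors on each of the 6 arrays, beside the median of all tested probes. The core median on old array 2 (-0.398, over the 8 core genes with a value there) is the lowest, but with flagged spots kept it was -0.0907 over 15 genes, above the assembly factors at -0.239, and the activator median is above 0 on every array with loess (with median centring it was -2.39 in old mice).

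The 6 ATPases of the cap, which unfold the substrate, had small group estimates with loess, but single arrays lay further from 0. In fl26 their estimates ran from -0.26 (Psmc1) to 0.19 (Psmc3), in svb9 from 0.02 (Psmc2) to 0.19 (Psmc3), and in old mice from -0.06 (Psmc4) to 0.25 (Psmc5). Their median absolute log2 ratio was 0.088 and 0.275 on the fl26 arrays, 0.093 and 0.078 in svb9 and 0.216 and 0.234 in old mice. For all tested probes it was 0.095 and 0.132, 0.071 and 0.109, and 0.099 and 0.131. With median centring, all 19 cap genes with an old estimate were lower in old mice (median -2.23). Psmc1 had -0.14 and -0.39 in fl26, 0.04 and -0.01 in svb9 and 0.23 and -0.22 in old mice. Psmc6 had -0.02 and -0.10, 0.18 and -0.02, and 0.07 and 0.40. Psmc5 was above 0 on all 5 arrays where it had a value, from 0.12 to 0.25.

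The subunits that recognise and strip ubiquitin had values on both sides of 0. Psmd4, a ubiquitin receptor, had -0.01 and 0.13 in fl26, 0.07 and -0.00 in svb9 and 0.04 and -0.32 in old mice. Psmd14, the deubiquitinase of the cap, had 0.05 and -0.06, 0.22 and -0.11, and -0.07 on old array 1. Its other tested probe differed by 0.46 in fl26, with an estimate of 0.45, so the 2 probes disagreed there.

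Among the lid subunits Psmd3, a scaffold of the lid, was below young wild type on all 4 arrays with a value. It had -0.20 and -0.38 in fl26 and -0.17 and -0.28 in svb9, giving estimates of -0.29 ± 0.09 and -0.22 ± 0.09 with limma adjusted p of 0.377 and 0.980. Both old spots of Psmd3 were flagged as uneven, and with them kept the values were 1.31 and 0.41. Psmd8, the subunit that completes the lid, had -0.03 and -0.00 in fl26, 0.11 and 0.40 in svb9 and 0.01 and -0.25 in old mice. Its svb9 estimate was 0.26, but -0.03 with its other tested probe. Psmd11, which braces the cap against the core, had -0.00 and 0.46, 0.11 and 0.06, and -0.23 and -0.16. Psmd6 had 0.04 and -0.29, 0.11 and 0.12, and 0.67 and -0.22, so its old arrays pointed in opposite directions. Psmd13 had -0.25 and 0.01, -0.02 and -0.15, and 0.04 and 0.08. Psmd12 was lowest on old array 1, at -0.41, and had no value on the other, where the flagged spot read 0.04 when kept. Its other tested probes gave estimates of -0.33 and 0.11 in old mice. The large scaffold subunits Psmd1 and Psmd2 and the lid subunit Psmd7 lay between -0.36 and 0.14.

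The chaperones that build the base of the cap were close together. Psmd10, also known as gankyrin, was higher on every array, with 0.13 and 0.19 in fl26, 0.12 and 0.08 in svb9 and 0.03 and 0.20 in old mice. Psmd5 had 0.13 and 0.12, 0.12 and 0.33, and -0.01 and 0.11. Psmd9 was dim, with red not well above background on either old array, and had -0.08 and 0.33, -0.02 and 0.08, and -0.23 and -0.01. Over all 6 arrays, 1 of 27 genes was higher on every array (5.06% of all probes were) and 3 of 27 were lower on every array (6.92% of all probes).

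The activators, which open the core without the 19S cap, included the gene with the highest ratio in svb9 and in old mice. Psme3, the activator found in the nucleus, had 0.18 and 0.60 in fl26, 0.19 and 0.65 in svb9 and 1.04 on old array 1. All 5 values were above 0, and the old one was the highest. Its estimate in old mice was a fold of 2.06, with an interval of 0.49 to 1.59 on the log2 scale and an adjusted p of 0.228. The spot on old array 2 was flagged as uneven, and read 0.70 with flagged spots kept. With median centring the estimate for old mice turned to -2.39. Psme1, an interferon-inducible activator, had 0.08 and 0.52 in fl26, 0.11 on svb9 array 1 and 0.14 and 0.36 in old mice, again all above 0. Psme4 had 0.03 and 0.24, 0.02 and 0.12, and -0.37 and 0.02, so old array 1 stood apart below 0. The inhibitor Psmf1 had -0.08 and -0.20, -0.02 and -0.39, and -0.13 and 0.03.

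The assembly factors, which guide the alpha ring together, split by gene. Psmg1 had -0.13 and -0.25 in fl26, -0.05 and -0.25 in svb9 and -0.18 and -0.36 in old mice. Psmg3 had -0.13 and -0.17, -0.20 and -0.38, and -0.14 and -0.24. Both were low on every array, with both svb9 values of Psmg3 below both of its fl26 values, whereas Psmg2, the partner of Psmg1, had -0.01 and 0.18, 0.13 and 0.11, and 0.20 and 0.19. The estimate for Psmg3 in svb9 was -0.29 ± 0.08 (limma adjusted p = 0.980), and with median centring the fl26 estimates for Psmg1 and Psmg3 changed sign to 0.11 and 0.15.

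For old mice the size of the group median depended on the normalization, though not its sign. It was -0.060 with loess, -0.128 with the Feature Extraction log ratios and -2.30 with median centring. Without old array 1, where red signal was weakest, the old median was 0.0052. In old mice 7 of 8 ventral prostate and luminal markers were higher (median 0.535, from -0.022 to 5.68), as was 1 of 5 fibroblast markers (median -0.379, from -0.82 to 0.017). Their part in the proteasome values was not tested.

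The test groups were also compared with each other, where the dye is the same on both sides. For fl26 against svb9, 0 of 42 genes were called (0% of tested probes) and 0 had an unadjusted p under 0.05 (2.18% of tested probes, 1.15% higher and 1.03% lower). The groups did not overlap for 3 higher and 6 lower genes of 41 (12.9% and 11.6% of all probes). Psmd8 and Psmc1 had the smallest p, with differences of -0.28 and -0.28. The other tested probe of Psmd8 gave -0.04. The extremes were Psmb1 at -0.29 and Psme1 at 0.19, and the 95% interval lay within 2-fold for 41 of 42 genes. Within the extraction date that both groups share, svb9 array 1 minus fl26 array 1 had a median of 0.013 for the core and 0.078 for the cap.

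Old mice against the transgenic lines gave 0 called of 40 in both comparisons (0% of tested probes). At an unadjusted limma p under 0.05, Psma7 was higher and Psmd11 lower than in fl26, with differences of 0.55 and -0.42. That is 2 of 40, against 7.74% of tested probes (4.36% higher and 3.38% lower). These differences depended on the normalization. With median centring in place of loess, Psma7 turned to -4.20 and Psmd11 went to -3.23. The old value of Psma7 came from old array 1 alone. With flagged spots kept, Psma7 was below 0 on both old arrays (-0.17 and -0.09). Against svb9, Psmd8 and Psmd12 were lower, with differences of -0.38 and -0.43. That is 2 of 40, against 4.71% of tested probes (3.11% higher and 1.6% lower). The other tested probe of Psmd8 gave 0.03, and those of Psmd12 gave -0.22 and 0.16. With median centring the differences for Psmd8 and Psmd12 were -2.06 and -4.10. With loess, Psme3 was the highest and Psma4 the lowest gene in both, with 0.65 and -0.61 against fl26 and 0.63 and -0.53 against svb9. The other tested probe of Psma4 gave -0.11 against fl26 and -0.12 against svb9. With median centring the Psme3 differences turned to -3.10 and -2.81. The old values of Psme3, Psma4 and Psmd12 also came from old array 1 alone. With flagged spots kept, old array 2 read 0.70, 0.02 and 0.04 for these genes. The groups did not overlap for 3 higher and 3 lower genes of 28 against fl26 (15.2% and 17.6% of all probes), and for 4 higher and 3 lower of 27 against svb9 (15.1% and 17.7%). Within a shared extraction date, old array 1 minus fl26 array 2 had a median of 0.20 for the core and -0.14 for the cap. For old array 2 minus svb9 array 2 it was -0.19 over 8 core genes and -0.11 over 14 cap genes, after the flagged spots were left out. With flagged spots kept, the core medians of these 2 arrays were close, at -0.0907 on old array 2 and -0.0938 on svb9 array 2. The cap medians were then 0.0134 and 0.0135.

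The genes that work with the proteasome were described by lists, and none of their members passed the test in limma in the comparisons with young wild type. The immunoproteasome subunits, which replace the catalytic ones under interferon, were Psmb8, Psmb9 and Psmb10. In fl26 they had -0.35, -0.51 and -0.07 on array 1 and 0.24, 0.03 and 0.04 on array 2, so the arrays disagreed. Of 14 genes for proteasome-bound and assembly proteins, 3 were higher and 11 lower in fl26, with a median of -0.13. The 2 arrays differed, with a median of -0.0078 on array 1 (6 of 14 higher) and -0.347 on array 2 (1 of 14 higher). Among them was Pomp, which matures the core, with -0.12 and -0.55, at an unadjusted p under 0.05 (adjusted p = 0.451). In old mice Adrm1, a ubiquitin receptor, had 0.32 and 0.83, and Ubqln1, a shuttle for ubiquitinated protein, had -0.58 and -0.63.

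Genes for transcription of the proteasome were mixed. Nfe2l1 itself had -0.09 and -0.19 in fl26, 0.15 and -0.41 in svb9 and 0.16 on old array 1. Ngly1, which removes glycans from NFE2L1 so that it becomes active, was above 0 on all 5 arrays with a value, with 0.27 and 0.44 in fl26 and 0.16 and 0.43 in svb9 (adjusted p of 0.358 and 0.980). In the ubiquitin list of 9 genes, Vcp, the segregase that extracts ubiquitinated protein, had -0.46 and -0.30 in old mice (adjusted p = 0.245).

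Most cytosolic chaperones had ratios above 0 in fl26, without passing the test. Of 12, 11 were higher there, with a median of 0.32, and 5 were higher at an unadjusted p under 0.05, against 5.75% of tested probes. The median was 0.25 on array 1 and 0.365 on array 2. Estimates for markers of other cell types were also above 0 in fl26 for 3 of 3 basal genes (median 0.274, lowest limma adjusted p 0.0589). For the fibroblast list it was 4 of 5 (0.280) and for the leukocyte list 5 of 6 (0.0986). The basal medians were 0.431 on array 1 and 0.259 on array 2. The other 2 lists differed between the arrays. Fibroblast medians were 0.738 (5 of 5 higher) and -0.127 (1 of 5), and leukocyte medians 0.212 (6 of 6) and -0.032 (3 of 6). The remaining marker lists were mixed in fl26. Estimates were above 0 for 3 of 3 endothelial (median 0.057), 2 of 3 erythrocyte (0.378) and 2 of 3 skeletal muscle genes (0.214). It was 2 of 4 for smooth muscle (-0.047), 3 of 8 for ventral prostate and luminal (-0.049) and 0 of 2 for adipocyte genes (-0.048). The part of these markers in the chaperone or proteasome values was not tested. Hspa1a, an inducible heat shock protein, had 0.60 and 1.46 in fl26, 0.32 and 0.49 in svb9 and -0.03 and 0.22 in old mice, and its fl26 adjusted p was 0.235. Hspa8, the constitutive form, had 0.34 and 1.18 in fl26, and Stip1, a co-chaperone, 0.32 and 0.89. In svb9 8 of 12 were higher with a median of 0.21, and in old mice 8 of 11 with a median of 0.11. Medians of other large complexes in fl26 were -0.027 for the chaperonin (8 genes), -0.074 for cytosolic ribosomal proteins (78) and -0.062 for the respiratory chain (77).

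**Figure D4:**
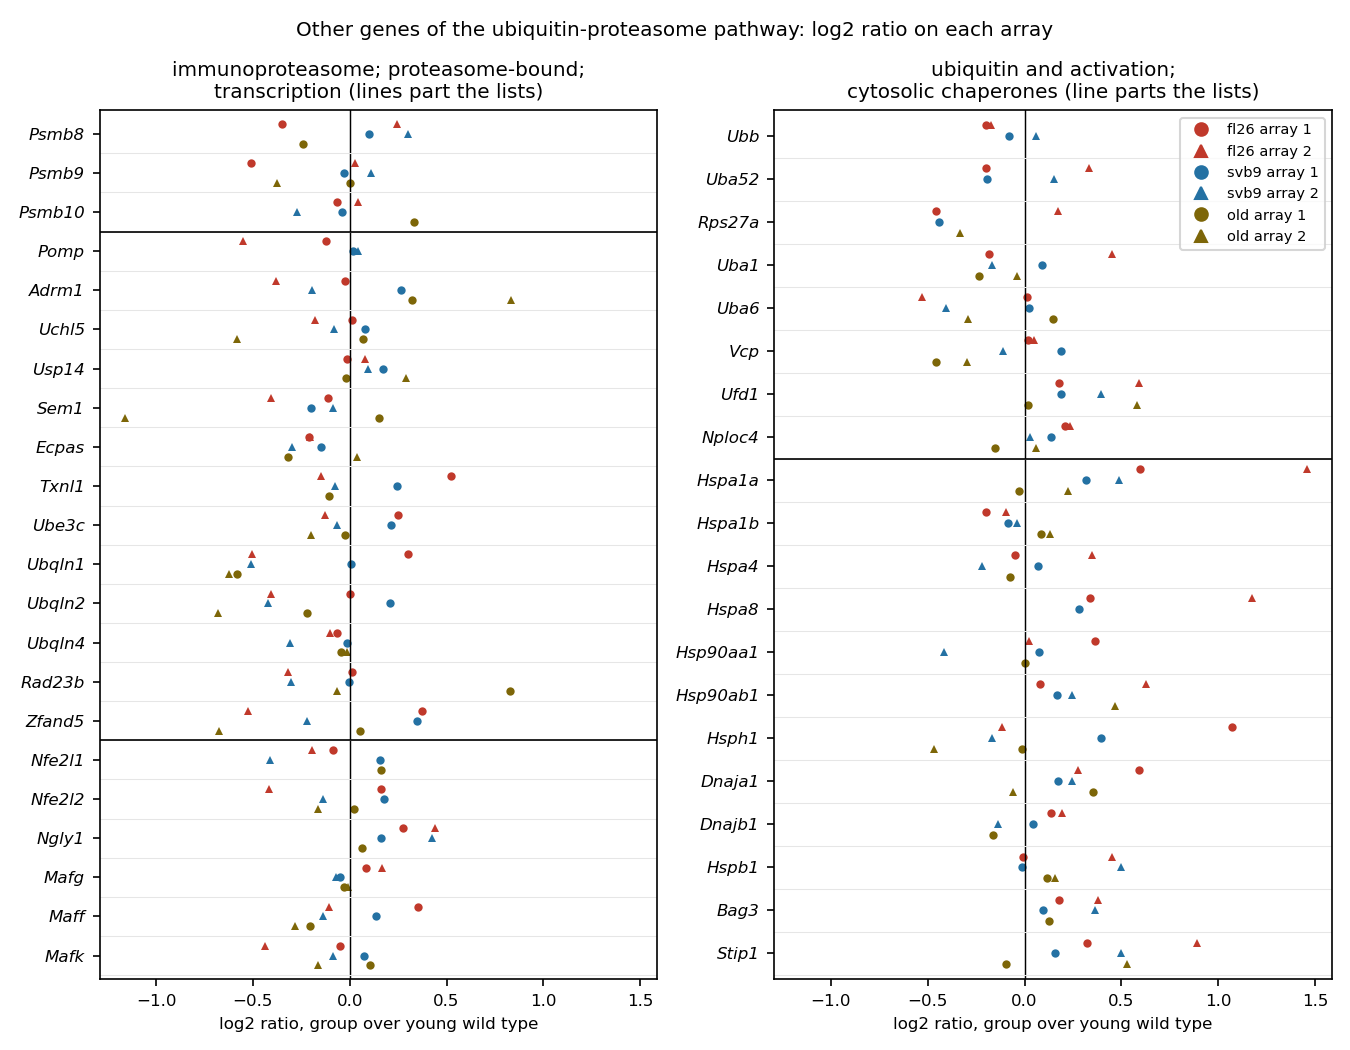
Log2 ratio over young wild type on each of the 6 arrays for genes that work with the proteasome, with immunoproteasome, proteasome-bound and transcription genes on the left and ubiquitin and chaperone genes on the right. Hspa1a on fl26 array 2 (1.46) is the highest value, and the immunoproteasome genes lie on both sides of 0 in fl26.

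Where a gene had several tested probes, these often disagreed on the direction. Probes differed in sign for 7 of 15 genes in fl26 (Psma4, Psmc4, Psmd7, Psmd12, Psmd14, Psme4 and Psmf1). In svb9 it was 6 of 15 (Psma4, Psmc4, Psmd8, Psmd12, Psme4 and Psmf1). In old mice it was 8 of 14 (Psmc5, Psmc6, Psmd2, Psmd4, Psmd7, Psmd9, Psmd12 and Psmd14). The largest gap between probes of a gene was 0.46 in fl26 (Psmd14), 0.30 in svb9 (Psmf1) and 0.67 in old mice (Psmd7). In these genes the gap between probes was of the size of the group estimates themselves.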

How the data were processed

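Spot intensities, flags and log10 ratios were deposited as Agilent Feature Extraction A.7.5.1 output, per the file headers, with mean intensity and background median per channel. The deposited log10 ratios, and the same ratios rounded in the authors' series table, were dye-normalized by that software and served as alternatives. From the intensities, log2 ratios of red over green were computed in R 4.3.3 with limma 3.58.1: normexp (offset 50), loess, control spots and outlier-flagged spots left out, saturated spots kept, replicate spots averaged. Of 41174 probes, 27860 well above background in one channel on both arrays of a group were tested, with 3 group means fitted to 6 arrays, 2-sided, threshold 0.05. All 42 members passed that filter. Members and gene lists were chosen with earlier results of these data known. Values on every array are given for the 5 smallest p with concordant arrays per comparison, the extremes, and the catalytic, ubiquitin-handling, activator and assembly genes. The fit was tested on simulated data. With 2 arrays per group, the number of arrays limits the precision. Arrays carry 3 extraction dates, taken as batches. RefSeq (GRCm38.p6) gave names and promoters. A few genes of the pathway lists are counted but not reported here by name or in the plots.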

Additional observations from a re-analysis of the deposited data

How the results depend on the processing

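Over 20 alternatives the count of proteasome genes called stayed at 0 in all 6 comparisons, with the replicate block as the exception. With the replicate block (the replicate number as a term), 1 gene was called in fl26 (Psma3, log2 ratio 0.44, adjusted p = 0.0395) and 4 in old mice (Psmb2 0.53, Psmb5 -0.34, Psmb6 -0.53 and Psme3 1.26, adjusted p of 0.0184, 0.0491, 0.0301 and 0.0125), when 3.58% and 4.38% of all tested probes were called. The labels do not describe the numbers as a pairing, and whether they pair the arrays was not settled. Over all tested probes, deviations from the group mean had a correlation between arrays of one number of 0.61 (fl26, svb9), 0.33 (fl26, old) and 0.17 (svb9, old). Leaving out each array in turn called 0 members everywhere, with medians from -0.032 to 0.013 in fl26, -0.020 to 0.032 in svb9 and -0.060 to 0.0052 in old mice. Median centring moved the median to 0.28 in fl26 and to -2.30 in old mice. The old median was -0.128 with Feature Extraction log ratios, -0.128 with the series table and -0.101 with extraction date as a term. The cause of these shifts was not tested. Old array 1 had red signal well above background for 28 of 42 members, and old array 2 lost 14 of 42 to flags.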
